A study of Mus musculus with 6 samples.

Results

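Cluster 1 microglia are the microglia to which the deposited cell annotation gives both the cell type name microglia and the cluster number 1. They numbered 905 of the 2721 microglia and of the 3005 cells in the series. Microglia are the resident macrophages of the brain. They survey the tissue through purinergic receptors such as P2ry12, depend on the growth factor receptor Csf1r, and take up debris through lysosomal and complement pathways. Under injury or ageing some of them lower this homeostatic programme and raise antigen presentation, lipid handling and chemokine genes. Microglia also carry the glucocorticoid receptor, which links stress hormones to genes such as Fkbp5 and Tsc22d3.

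The cells came from mouse hippocampus (strain written BC57BL/6 in the labels), dissected without meninges or choroid plexus after perfusion and sorted as live CD45-positive cells. The labels give 6 conditions with 1 library each, so no comparison between conditions has a replicate. Non-shocked mice received no footshock. The 5 other groups received 180 inescapable shocks of 0.3 mA and were tested the next day in 30 trials of 24 s. The acute groups are named acute helpless and acute non-helpless after that test. The chronic groups were retested every week for 3 weeks and were named chronic non-helpless, chronic non-recovered (labelled only as non recovered) and chronic recovered (once helpless mice that had ceased to be so). Helpless is short for the labels' learned helpless. The labels give neither age, sex nor the number of mice behind a library.

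Cluster 1 occurred in 5 of the 6 libraries. It held 244 of 552 microglia in the non-shocked library, or 44.2% (95% Clopper-Pearson interval 40.0 to 48.5%). The share was 41.1% in the acute non-helpless library (234 of 569 microglia; 37.0 to 45.3%) and 46.2% in the acute helpless library (291 of 630; 42.2 to 50.2%). It was 19.0% in the chronic non-helpless library (95 of 499; 15.7 to 22.8%) and 41.4% in the chronic non-recovered library (41 of 99; 31.6 to 51.8%). The chronic recovered library had 0 of 372 (0 to 0.987%). Over all microglia, 4 shares thus lay between 41.1% and 46.2% with overlapping intervals, and the chronic non-helpless share lay below them. Among microglia with at least 2.5% of UMIs from ribosomal protein genes, a limit chosen after seeing the data, the share was 73.0% (67.8 to 77.8%) without shock. It was 54.2% in the acute helpless (49.8 to 58.5%), 45.0% in the acute non-helpless (40.6 to 49.4%), 22.3% in the chronic non-helpless (18.4 to 26.6%) and 84.8% in the chronic non-recovered library (71.1 to 93.7%). The likeness of the 4 shares was therefore lost there, while the chronic non-helpless share remained the lowest of the 5. These intervals, like all those below, cover counting error only.

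Batch and cluster numbering touch these shares. In the annotation, batch 1 is the acute helpless library and batch 2 the acute non-helpless one, all chronic cells are batch 3, and non-shocked cells fall in batches 2 and 3. All 244 non-shocked cluster 1 cells were from batch 3, where they made up 56.9% of the microglia (52.0 to 61.6%), above the interval of each acute library, against 0 of 123 in batch 2. The sources used here do not say how the cluster numbers were assigned. The chronic recovered library, which had no cluster 1, had 326 of its microglia in cluster 2, and the non-shocked and chronic non-recovered libraries had cluster 1 and no cluster 2. Whether a missing number is a missing kind of cell or a different numbering was not tested.

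The microglial markers fitted the label. All 10 microglial markers, among them P2ry12, Tmem119 and Sall1, had UMIs (unique molecular identifiers, the counted transcripts) in cluster 1 of every library that had it. Their summed level was 45300 to 56806 CPM, counts per 1000000 UMIs of the summed cells. Markers of neurons summed to at most 3.62 CPM, of natural killer cells to at most 1.73, of border macrophages to at most 14.2 and of monocytes to at most 26.3. The border macrophage markers Cd163 and Lyve1 were at 0. Other lists summed higher. The B cell list gave 216 to 346 CPM, mostly Ighm and Cd79b, and Cd79a and Igkc had 16 UMIs each in the acute helpless library. The astrocyte list gave 139 to 253 CPM, nearly all of it Slc1a3, with Aqp4 and Slc1a2 at 0, and the oligodendrocyte list 79.0 to 132 CPM, mostly Cnp and Mag, with Mog and Mobp at 0. Their part in the results was not tested. T cell markers were highest in the acute non-helpless library, at 45.0 CPM, and neutrophil markers in the chronic non-recovered library, at 79.0 CPM. Erythrocyte markers summed to 46.2 CPM in the non-shocked library, with UMIs for all 5, and to 0 in the other libraries with cluster 1. Endothelial markers gave 10.5 to 47.0 CPM. The part of these lists in the results was not tested either. No cluster 1 barcode occurred in more than 1 library, and a doublet caller marked 18 of the 905 cells.

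Cluster 1 was the best-covered group of microglia in each library that had it, leaving out a cluster of 1 cell. Its median was 4946.5 UMIs per cell in the non-shocked library, 4500.5 in the acute non-helpless, 4881 in the acute helpless, 5471 in the chronic non-helpless and 4541 in the chronic non-recovered library. Cluster 2 had medians of 3609.5, 3808.5 and 4545.5 in the 3 libraries that had both (acute non-helpless, then acute helpless, then chronic non-helpless), and cluster 3 had 1536.5 to 2290. Ribosomal protein transcripts took a median of 4.67 to 6.69% of a cluster 1 cell's UMIs, against 0.828 to 1.33% in cluster 3 and in cluster 6 of the chronic non-recovered library. Summed over cells, cluster 1 held 1254827, 1156041, 1481854, 552790 and 189809 UMIs in the same order of libraries, so the chronic non-recovered values are the least precise. Depth differs with cluster in every comparison within a library, and its part in those results was not tested.

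**Figure D1:**
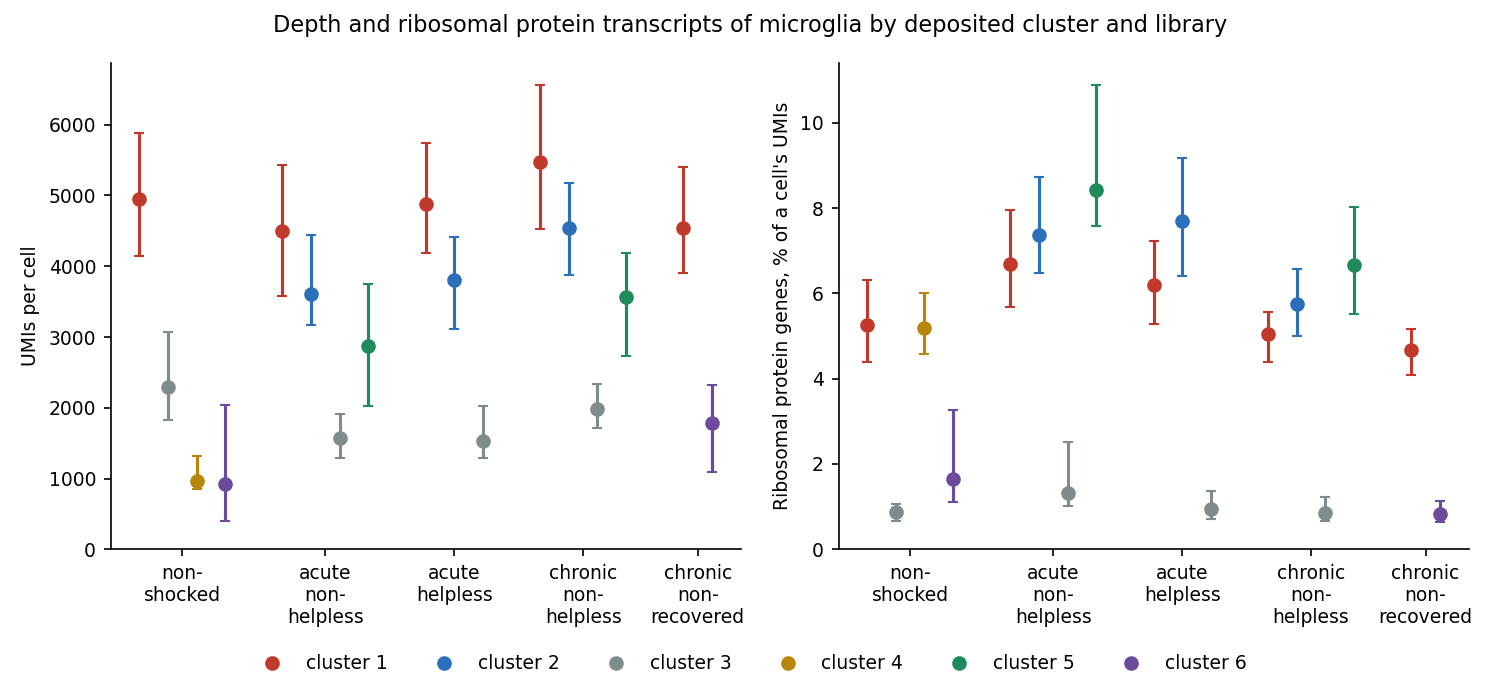
Median and quartiles of UMIs per cell (left panel) and of the percent of a cell's UMIs from ribosomal protein genes (right panel), for microglia of each deposited cluster in the 5 libraries with cluster 1; clusters of 1 cell are not drawn. Cluster 1 (red) had the highest median depth in each library, while clusters 3 and 6 lay lowest in ribosomal protein share.

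Homeostatic genes differed in how level they were across cluster 1. P2ry12, the ADP receptor that directs microglial processes, stood at 7517 CPM in the non-shocked library, 6427 in the acute non-helpless, 6821 in the acute helpless, 8338 in the chronic non-helpless and 7492 in the chronic non-recovered library. Tmem119, a microglial surface protein, ran from 2903 CPM (chronic non-recovered) to 3909 (acute helpless). Sall1, a transcription factor of microglial identity, ran from 169 (acute helpless) to 308 CPM (chronic non-helpless). Csf1r, the growth factor receptor, stood at 6969, 4501, 3496, 7506 and 6775 CPM in the order given for P2ry12. The acute libraries were thus the lowest for Sall1 and Csf1r, whose highest and lowest levels lay more than 1.5-fold apart, while those of P2ry12 and Tmem119 lay within 1.5-fold. The acute libraries also differ from the others in batch.

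The first comparison set cluster 1 against the other microglia of its own library. In the non-shocked library these were limited to batch 3, so both sides share library and batch. Whether both sides came from the same mice is not known, since the labels do not give the number of mice. The clusters were formed from the expression of these cells, so the values below describe the clusters and carry no test. A gene was counted as apart when its level differed at least 1.5-fold, among genes with at least 20 CPM on the higher side and at least 1 UMI in every library of the series. Ratios were taken on summed UMIs, with counts of 0 to 2 set to 3. By this count, 49.6% of genes were apart in the non-shocked library, 9.09% in the acute non-helpless, 7.9% in the acute helpless, 12.4% in the chronic non-helpless and 54.2% in the chronic non-recovered library. Among genes with at least 200 CPM on the higher side, where counting error is smaller, the percentages were 53.7, 1.2, 0.514, 0.635 and 60.9. Libraries whose other microglia lay mostly in cluster 2 or 5 thus had few genes apart, and those whose other microglia lay in clusters 3, 4 or 6 had many. Of the genes apart in the non-shocked library, 38.6% were higher in cluster 1 with UMI totals as the scale and 50.3% with median-of-ratios size factors; in the acute non-helpless library the split was 59.6% and 45.5%.

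Taking the reference clusters one at a time showed the same division. Against cluster 2, 0.263% of well-counted genes were apart in the acute non-helpless (2 of 761), 0.649% in the acute helpless (5 of 771) and 0.504% in the chronic non-helpless library (4 of 794). Against cluster 5 the percentages were 11 in the acute non-helpless and 15.9 in the chronic non-helpless library. Cluster 4 of the non-shocked library held 38 cells and 50800 UMIs, so counting error is larger there, and the percentage against it was 20. Against cluster 3 it was 61.4 in the non-shocked, 51.8 in the acute non-helpless, 30.8 in the acute helpless and 63.4 in the chronic non-helpless library, and against cluster 6 it was 60.9 in the chronic non-recovered library. For scale, cluster 1 of one library was set against cluster 1 of another. The non-shocked library had 10.5% of well-counted genes apart from the chronic non-helpless, 10.8% from the chronic non-recovered, 13.6% from the acute helpless and 17.7% from the acute non-helpless library. The remaining pairs ran from 11.2% (acute non-helpless against chronic non-helpless) through 13.1% (the acute pair), 14.9% (chronic non-recovered against chronic non-helpless), 23.3% and 24.9% (acute helpless against the same chronic libraries, non-helpless first) to 28.1% (acute non-helpless against chronic non-recovered). Counting error is larger in the pairs with the chronic non-recovered library, whose cluster 1 held 189809 UMIs. In the 3 libraries that had cluster 2, cluster 1 lay nearer to it than to cluster 1 of any other library, by this count.

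**Figure D2:**
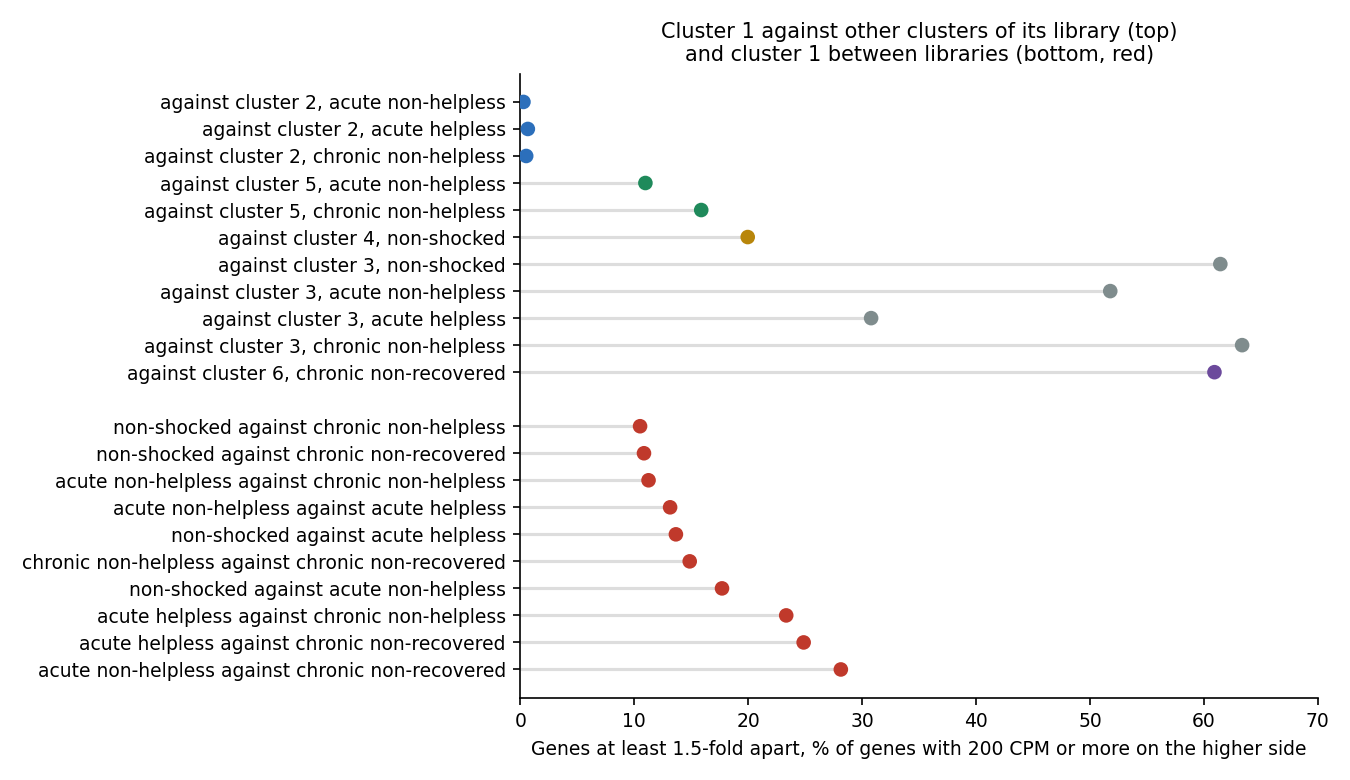
Percent of genes with at least 200 CPM on the higher side that were at least 1.5-fold apart, for cluster 1 against single clusters of the same library (coloured by reference cluster) and for cluster 1 between pairs of libraries (red). The 3 values against cluster 2 lie under 1%, and all 10 pairs of libraries lie between 10.5% and 28.1%.

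Against cluster 2, the well-counted genes apart differed from library to library; they are named here after their values were seen. In the acute helpless library Cd74, the invariant chain of MHC class II, stood at 30.4 CPM in cluster 1 and 357 CPM in cluster 2, an 11.8-fold lower level (8.58 to 16.5). Apoe, a lipid carrier protein, stood at 293 against 959 CPM, 3.27-fold lower (2.91 to 3.69), and Lyz2, lysozyme, at 163 against 349 CPM. Cd63, a tetraspanin of late endosomes, was also lower (log2 ratio -0.83), and Epb41l2, a cytoskeletal linker, was higher (0.59). In the acute non-helpless library Apoe went the other way, with 222 CPM in cluster 1 and 161 in cluster 2, a 1.38-fold higher level (1.08 to 1.77) that fell short of the 1.5-fold mark. There the genes apart were Ms4a6b (log2 ratio 0.80) and mt-Nd3 (-0.61), and in the chronic non-helpless library they included Dynll1 (-0.79), Pde3b (0.65) and Upk1b (0.87). None of the 624 well-counted genes measured in all 3 libraries was apart in the same direction in all 3. At the 20 CPM minimum, 9 of 5815 genes were higher and 1 lower by at least 1.5-fold in all 3, and 1422 were higher and 542 lower in all 3 by any margin. The excess of higher genes depended on the scale. With size factors in place of UMI totals, the share of apart genes that were higher moved from 75 to 60.9% in the acute non-helpless library. It moved from 76.2 to 58.5% in the acute helpless and from 64.9 to 54.4% in the chronic non-helpless library. Id2, an inhibitor of helix-loop-helix transcription factors, was the lower gene ranked first by the naming rule, with log2 ratios of -0.52, -0.51 and -0.52, and Lyz2 had -0.37, -1.10 and -0.31. The 30 measured homeostatic genes had medians of -0.03, 0.14 and -0.01 with none apart, in the same order of libraries as above, where 14.9, 11.2 and 14.7% of all genes at 20 CPM or more were apart.

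Against cluster 5, cluster 1 was low in antigen presentation, lipid and chemokine genes in both libraries that had the cluster. The genes of this paragraph were ranked by the naming rule applied to a single reference cluster, a step added after the data were seen. Cd74 stood at 17.3 CPM in cluster 1 and 1043 in cluster 5 of the acute non-helpless library, and at 9.05 and 428 CPM in the chronic non-helpless library. Those are 60.3-fold (38.5 to 99.8) and 47.3-fold (19.8 to 148) lower levels. Ccl3, a chemokine that draws leukocytes, stood at 21.6 against 226 CPM and at 12.7 against 338 CPM. The rule ranks only genes with the same direction in both libraries, so the likeness of direction follows from the choice of genes. Lpl, a lipase of the lipid programme, had log2 ratios of -2.57 and -2.96, Apoe -2.43 and -2.46, Lyz2 -2.17 and -1.94, the growth factor Csf1 -2.38 and -1.88, and the transcription factor Klf2 -1.79 and -2.63. Ccl4, the partner of Ccl3, had -1.90 and -4.15. Higher in cluster 1 were Slc36a1, a lysosomal amino acid transporter (1.70 and 2.06), and the orphan receptor Gpr165 (1.39 and 1.33).

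The lists gave the same picture of cluster 5. Of the disease-associated microglia genes measured, 9 of 19 in the acute non-helpless and 10 of 20 in the chronic non-helpless library were lower in cluster 1 and none higher, with medians of -0.58 and -0.76. Over all genes measured, 6.18% and 12.9% were lower, 21.1% and 17.3% were higher, and the medians were 0.18 and 0.06. Of the MHC class II list, 4 of 9 were lower and 1 of 9 higher in each library, the lower ones being Cd74, H2-Aa, H2-Ab1 and H2-Eb1. Of the cytokine and chemokine list, 6 of 11 were lower in each library, with medians of -0.75 and -1.88. Homeostatic genes had medians of 0.28 and 0.37, with 5 of 30 and 4 of 30 higher and none lower; P2ry12 stood at 6427 against 4904 CPM and at 8338 against 6275 CPM. With size factors in place of UMI totals the median of all genes in the acute non-helpless library moved from 0.18 to -0.04, the share of apart genes that were higher from 77.3% to 48.7%, and the homeostatic count to 0 of 30 (median 0.09), while 14 of 20 disease-associated genes were then lower. Clusters 1 and 5 had median depths of 4500.5 and 2877 UMIs per cell in the acute non-helpless library and of 5471 and 3563.5 in the chronic non-helpless library.

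Against clusters 3 and 6, cluster 1 was rich in messenger RNAs of the respiratory chain and poor in nuclear and long-gene transcripts. Of the 29 nuclear-encoded oxidative phosphorylation genes, 29 were higher against cluster 3 in the non-shocked library (median log2 ratio 1.78), 17 in the acute non-helpless (0.61), 14 in the acute helpless (0.52) and 24 in the chronic non-helpless library (1.00), with none lower. Against cluster 6 of the chronic non-recovered library 20 of 29 were higher (0.97). Of all genes measured, 21.8, 16.5, 12.3 and 20.7% were higher against cluster 3 in the same order and 21% against cluster 6, with medians of -0.30 to -0.08. Cox8a, a subunit of cytochrome c oxidase, stood at 301 CPM in cluster 1 and 119 in cluster 3 of the non-shocked library, and at 284 and 117 CPM in the chronic non-helpless library.

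The nuclear and long-gene list moved the opposite way in the same comparisons. Of its measured members, 22 of 25 were lower in the non-shocked, 25 of 26 in the acute non-helpless, 19 of 24 in the acute helpless and 22 of 25 in the chronic non-helpless library against cluster 3, and 17 of 26 against cluster 6. Of all genes, 34.4, 37.6, 28.4 and 38.8% were lower against cluster 3 in that order, and 33.2% against cluster 6. Size factors moved the share of apart genes that were higher from 30.5 to 41.5% in the acute non-helpless and from 30.3 to 42.6% in the acute helpless library, with 23 of 26 and 17 of 24 long-gene transcripts still lower. Malat1, a long noncoding RNA kept in the nucleus, stood at 9597 CPM in cluster 1 and 30418 in cluster 3 of the non-shocked library, at 10318 and 34731 in the acute non-helpless, at 8525 and 18380 in the acute helpless and at 10243 and 34908 in the chronic non-helpless library. Ptprc, which encodes the CD45 antigen used for the sort, stood at 245 against 533, 202 against 608, 140 against 367 and 204 against 671 CPM in the same order. Both transcripts were lower in cluster 1 in each of the 4 libraries. Of 6225 genes measured in all 4, 196 were higher and 705 lower in cluster 1 in every one. Ribosomal protein share and depth differed between the same clusters, and their part in these ratios was not tested. In cluster 6 of the chronic non-recovered library neutrophil markers summed to 59742 CPM and monocyte markers to 2313, against 79.0 and 26.3 in cluster 1; their part in that library's ratios was not tested.

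**Figure D3:**
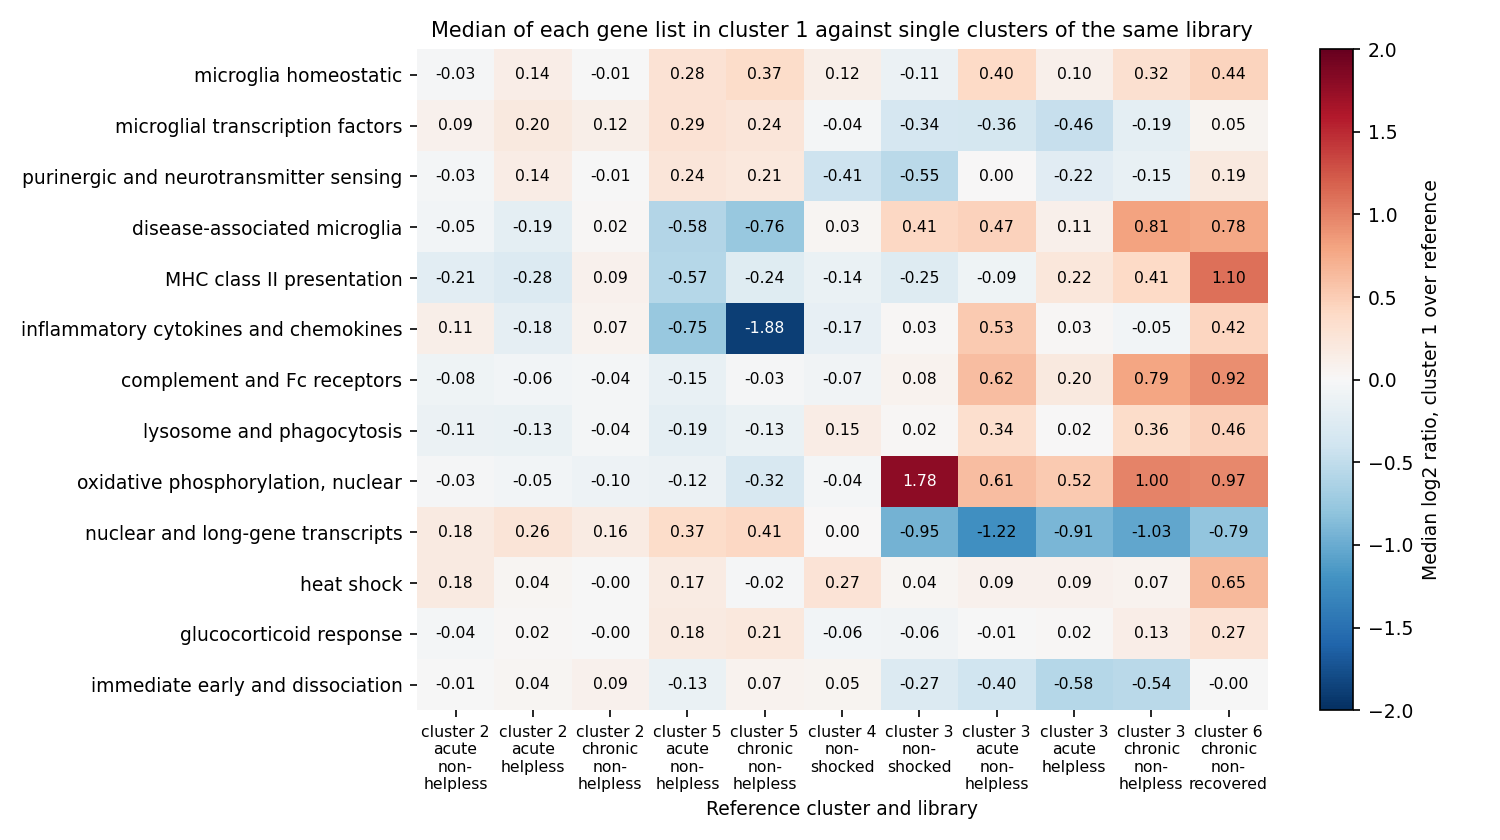
Median log2 ratio of the measured members of each gene list (rows) in cluster 1 over a single other cluster of the same library (columns); red is higher in cluster 1 and blue lower. Columns for cluster 2 stay between -0.28 and 0.26, columns for cluster 5 are blue for disease-associated and chemokine genes, and columns for clusters 3 and 6 are red for oxidative phosphorylation and blue for nuclear and long-gene transcripts.

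Few genes set cluster 1 apart from the other microglia in every library. Of 5778 genes measured in all 5 libraries, none was at least 1.5-fold higher and 2, Dopey1 and AU020206, at least 1.5-fold lower in every one (named after their values were seen); 525 were higher and 419 lower in all 5 by any margin. Leaving out a library in turn gave 3 to 16 genes apart in the remaining 4. The genes with the largest weakest-library ratio on the higher side included Anapc13, a subunit of the anaphase-promoting complex, with log2 ratios of 1.53 in the non-shocked library, 0.45 and 0.42 in the acute libraries (non-helpless first), 0.47 in the chronic non-helpless and 2.07 in the chronic non-recovered library. Tmem100, a membrane protein, had 1.54, 0.36, 0.84, 0.35 and 2.27. Vps4a, Commd6, Rbfa, Isca1, Ube2e1, the cyclin gene Ccnd1, the chromatin gene Dek, the sialomucin gene Cd164 and the tubulin genes Tuba1a and Tubb2a completed the 12. For both genes printed with values, the ratios were larger in the non-shocked and chronic non-recovered libraries, which had no cluster 2, than in the other 3; this did not hold for each of the 12, since Vps4a was largest in the chronic non-helpless library (0.87) and Ube2e1 smallest in the chronic non-recovered one (0.27).

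On the lower side, Lyz2 had log2 ratios of -0.52, -1.19, -0.88, -1.09 and -3.41 in the same order of libraries. Its level in cluster 1 stayed between 117 and 201 CPM, while in the other microglia it was 288 CPM in the non-shocked, 266 in the acute non-helpless, 299 in the acute helpless, 253 in the chronic non-helpless and 1796 in the chronic non-recovered library. The last value stood beside the neutrophil and monocyte marker levels of that library's cluster 6. Arnt, the partner of the hypoxia-inducible factors, had -1.45, -0.70, -0.55, -0.61 and -1.54, and Ptprc -0.91, -0.40, -0.56, -0.50 and -1.47. Malat1, the axon guidance gene Nav2, the RNA editing enzyme Apobec1, the transcription factor Runx1, the interferon receptor Ifnar1, Zcchc7, Matk, Inpp5k and Camk1d made up the rest. Against cluster 2 alone Ptprc had log2 ratios of -0.14, 0.00 and -0.06 and Malat1 of 0.05, 0.04 and 0.12 in the 3 libraries with that cluster (acute non-helpless first, chronic non-helpless last), all short of the 1.5-fold mark.

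The second comparison set cluster 1 of one condition against cluster 1 of another. Each condition is 1 library, so the differences below compare libraries. For acute helpless against acute non-helpless the library batches also differ (1 against 2), and condition and batch cannot be told apart there. The chronic libraries and the non-shocked cells used here share batch 3. The acute libraries are of other batches, so condition and batch cannot be told apart against the non-shocked cells or the chronic libraries. One further pattern cut across the conditions: 352 of 7752 genes (4.54%) were at least 1.5-fold higher in each of the non-shocked, acute helpless and chronic non-recovered libraries than in both the acute non-helpless and the chronic non-helpless library, with 2 CPM added to each level, and a median fold of 3.16. Cebpb, a transcription factor of the C/EBP family, was one of them, with 210, 512 and 374 CPM against 40.7 and 25.3. They included 9 of the 10 highest genes of acute helpless over acute non-helpless, 7 of the 10 highest of chronic non-recovered over chronic non-helpless and 9 of the 10 lowest of chronic non-helpless over non-shocked. A split of 3 libraries from 2 that crosses both treatment and batch is given here as a fact of the libraries, and its part in the ratios was not tested.

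Among glucocorticoid response genes, Ddit4 and Tsc22d3 were higher in each shocked library than in the non-shocked one, and Fkbp5 was not. For the acute libraries, shock and batch cannot be told apart in these levels. Ddit4, an inhibitor of mTORC1 signalling that stress hormones induce, stood at 24.7 CPM in the non-shocked library (16.8 to 35.1), 360 in the acute non-helpless (326 to 396), 1156 in the acute helpless (1102 to 1212), 156 in the chronic non-helpless (124 to 192) and 348 in the chronic non-recovered library (269 to 442). Tsc22d3, a mediator of glucocorticoid action in immune cells, stood at 40.6, 292, 389, 136 and 374 CPM in the same order. Both genes were lowest in the non-shocked library and, among the shocked libraries, lowest in the chronic non-helpless one. Fkbp5, a co-chaperone that restrains the glucocorticoid receptor, had another order: 40.6 CPM in the non-shocked, 31.1 in the acute non-helpless, 254 in the acute helpless, 27.1 in the chronic non-helpless and 142 in the chronic non-recovered library. The intervals of its 3 low values overlap one another, and none reaches the 2 high ones. Per1, a clock gene with a glucocorticoid-responsive promoter, was highest in the chronic non-recovered library at 121 CPM, against 10.4, 26.8, 35.1 and 16.3 CPM in the others.

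Heat shock chaperones followed yet another order, and here too the acute libraries differ from the non-shocked cells in batch. Hspa1a, the inducible Hsp70, stood at 16.7 CPM in the non-shocked library (10.4 to 25.6), 260 in the acute non-helpless (232 to 292), 29.7 in the acute helpless (21.6 to 39.9), 148 in the chronic non-helpless (118 to 184) and 163 in the chronic non-recovered library (111 to 232). Its neighbour Hspa1b stood at 0, 77.0, 5.40, 38.0 and 15.8 CPM, where 3 UMIs in place of 0 would be 2.39 CPM. Hsph1, an Hsp110 that assists Hsp70, stood at 7.17, 59.7, 19.6, 70.6 and 52.7 CPM. All 3 genes were low in the non-shocked and acute helpless libraries and high in the acute non-helpless and chronic non-helpless ones. The constitutive Hspa8 varied less, from 964 CPM in the non-shocked to 1710 in the chronic non-helpless library.

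The promoters of these 3 genes are shown because their levels differed between libraries in a like order. Each is the 150 bases before the annotated start, taken from RefSeq in build GRCm38.p6 and written 5′ to 3′ on the gene's strand, which is the minus strand for all of them. Capitals mark a pair of heat shock element units, GAA and TTC in either order with 2 bases of any kind between them, searched on both strands. Hspa1a lies at chr17:34972157-34972306, Hspa1b at chr17:34959239-34959388 and Hsph1 at chr5:149636337-149636486.
Hspa1a: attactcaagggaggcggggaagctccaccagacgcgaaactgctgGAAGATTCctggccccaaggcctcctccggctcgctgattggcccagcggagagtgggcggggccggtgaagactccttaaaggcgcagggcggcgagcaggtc
Hspa1b: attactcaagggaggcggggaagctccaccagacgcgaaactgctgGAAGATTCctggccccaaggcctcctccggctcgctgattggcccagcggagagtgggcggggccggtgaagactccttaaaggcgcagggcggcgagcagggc
Hsph1: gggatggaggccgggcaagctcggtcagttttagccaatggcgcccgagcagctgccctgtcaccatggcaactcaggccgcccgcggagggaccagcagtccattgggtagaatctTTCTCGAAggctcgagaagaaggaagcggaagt
The Hspa1a and Hspa1b stretches are identical at 149 of 150 bases. The coding copies are also near-identical, so the authors' counting could divide reads between them and each level is uncertain. The element begins 104 bases before the start in both, and 33 bases before it in Hsph1. In the 250 bases before the start, it occurs in 8 of the 16 heat shock list genes with a promoter in the RefSeq table (50%) and in 3932 of all 27025 genes there (14.5%). A match describes the letters in the window and shows no binding.

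**Figure D4:**
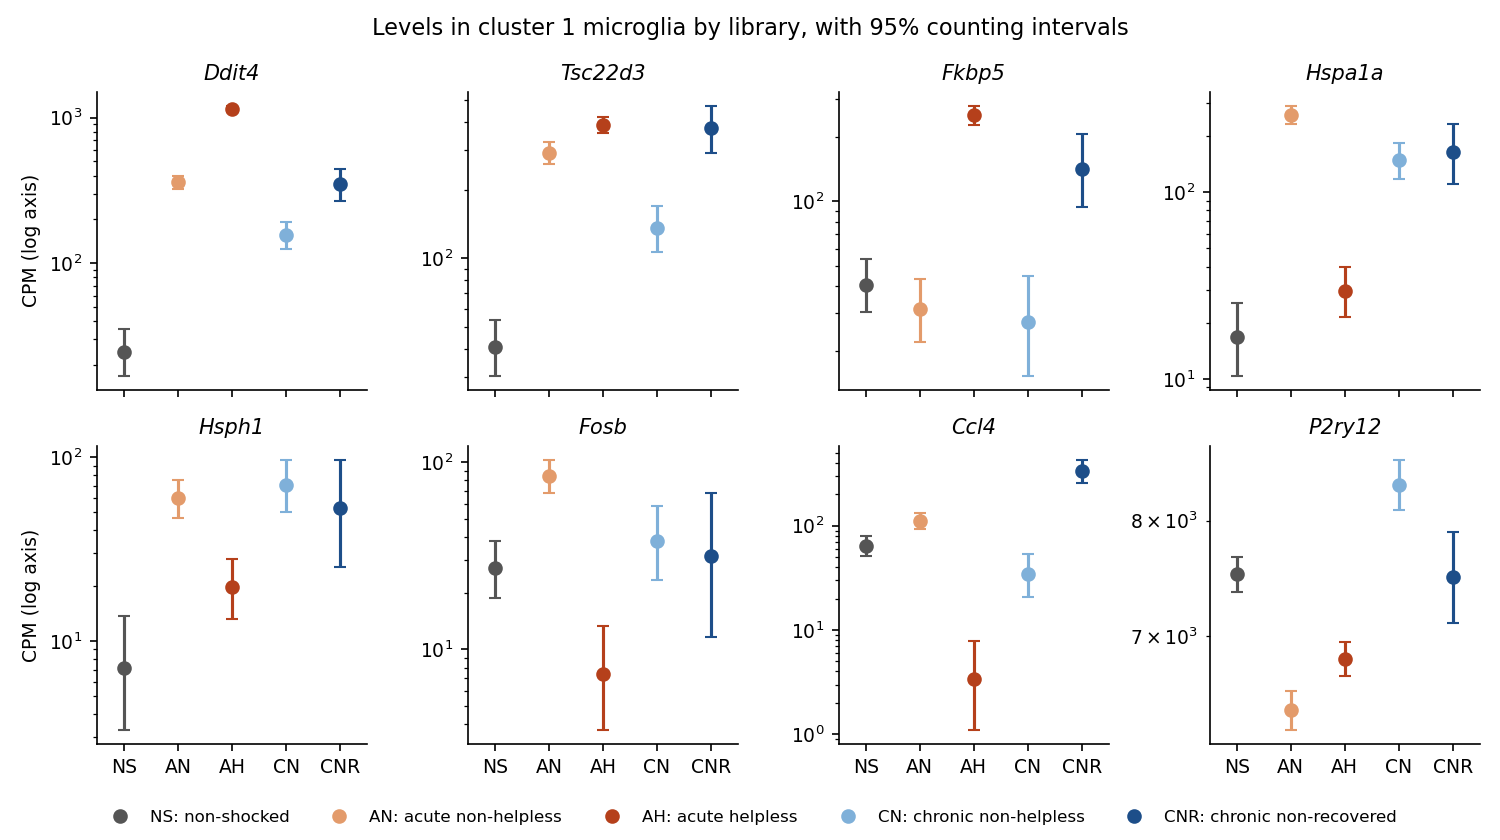
Level in cluster 1 of 8 genes by library, in CPM on a log axis whose range differs by panel, with 95% Poisson intervals that cover counting error; each point is 1 library. Ddit4 and Tsc22d3 are lowest in the non-shocked library, Fkbp5 is high in the acute helpless and chronic non-recovered libraries alone, and Hspa1a and Hsph1 are low in the non-shocked and acute helpless ones. The acute libraries differ in batch from the others and from each other.

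In the acute helpless against the acute non-helpless library, 10.1% of 6766 genes were higher and 13.1% lower in cluster 1, with a median log2 ratio of -0.08. Of the genes apart 43.5% were higher, and 55.0% with size factors. Fkbp5 was 8.15-fold higher (5.78 to 11.8) and Ddit4 3.21-fold (2.88 to 3.58), and Nr3c1, the glucocorticoid receptor, 1.52-fold (1.22 to 1.89). The glucocorticoid list had 5 of 16 higher and 2 lower, with Cebpb and Sult1a1 the other higher members and Cdkn1a and Dusp1 the lower ones. Of the heat shock list 7 of 21 were lower and none higher (median -0.42), with Hspa1a 8.77-fold lower (6.38 to 12.3).

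Immediate early genes, which respond within minutes to stimulation and to tissue handling, were also lower, 10 of 20 against 1 higher (median -0.59). Fosb stood at 7.42 against 84.8 CPM and Fos at 89.8 against 320 CPM, 11.4-fold (6.11 to 23.6) and 3.57-fold (2.92 to 4.38) lower. Klf4 was the higher member. Of the cytokine list 5 of 9 were lower: Ccl2, Ccl3, Ccl4, Ccl12 and Il1a. Ccl4 stood at 3.37 against 112 CPM, but 79 of the 129 UMIs of the acute non-helpless library came from 1 cell; without the cell with most UMIs on each side the log2 ratio was -4.42, against -5.05 with them.

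Other genes had ratios as large between the acute libraries. Qpct, which forms pyroglutamate at peptide ends, stood at 5.40 CPM in the acute helpless and 448 in the acute non-helpless library, a log2 ratio of -6.38. Its level was 2.39 CPM in the non-shocked, 0 in the chronic non-helpless and 258 in the chronic non-recovered library. Bri3, Arf5, Cebpb, Ctbp1, Glrx5, Pgp, Smagp, Smap1 and Ubald2, all in the split described above, were among the 10 highest, with log2 ratios of 3.13 to 4.30; Smagp and Glrx5 had 2 and 3 UMIs in the acute non-helpless library. The tenth, Crlf2, a cytokine receptor chain, stood at 99.9 against 9.52 CPM. Among homeostatic genes only Crybb1 (log2 ratio 0.91) and the integrin gene Itgb5 (1.22) of 30 were apart, both higher, and Itgb5 belongs to that split.

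In the chronic non-helpless against the non-shocked library, both of batch 3, 10.6% of 7006 genes were higher and 13.7% lower in cluster 1, with a median of 0.07. Heat shock genes stood out in count: 13 of 20 measured members were higher and none lower, with a list median of 0.81. Hsph1 was 9.84-fold higher (4.69 to 23.1), Hspa1a 8.86-fold (5.43 to 15.1) and Dnajb1, an Hsp40, 2.31-fold (1.75 to 3.06). Hspa1b, with 0 UMIs in the non-shocked library, was 15.9-fold higher when 3 UMIs were put in place of 0, a value without an interval. Ddit4 was 6.30-fold (4.13 to 9.83) and Tsc22d3 3.34-fold (2.31 to 4.86) higher. Not every member of the glucocorticoid list was higher: Cebpb, a member that belongs to the split described above, was lower and Fkbp5 was not higher. Lower were Apoe, at 208 against 485 CPM (2.33-fold; 1.91 to 2.87), and Egr1, an immediate early transcription factor, at 121 against 453 CPM. None of the 29 oxidative phosphorylation genes was apart (median -0.07), and 1 of 30 homeostatic genes, Itgb5, was (log2 ratio -0.92).

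In the chronic non-recovered against the non-shocked library, which uses the same non-shocked cells as the comparison before it, 20.5% of 7392 genes were higher and 11.2% lower, with a median of 0.10. The glucocorticoid list had 7 of 16 members higher: Ddit4, Tsc22d3, Fkbp5, Per1, Cebpb, Nfkbia and Sgk1. Ddit4 was 14.1-fold higher (9.05 to 22.3), Tsc22d3 9.20-fold (6.33 to 13.5) and Fkbp5 3.50-fold (2.11 to 5.69). Heat shock genes were higher in 8 of 19 and lower in 1, with Hspa1a 9.76-fold higher (5.43 to 17.9), although 13 of its 31 UMIs lay in 1 cell. Qpct rested on 49 UMIs against 3 in the non-shocked library, a ratio of 108 (34.8 to 542).

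In the chronic non-recovered against the chronic non-helpless library, 24.1% of 7414 genes were higher and 13.6% lower, with a median of 0.05. Here 7 of 16 glucocorticoid genes were higher and none lower (median 0.43). Per1 was 7.44-fold (3.32 to 18.3), Fkbp5 5.24-fold (2.69 to 10.6), Tsc22d3 2.76-fold (1.97 to 3.87) and Ddit4 2.24-fold (1.60 to 3.12) higher. Qpct had 49 UMIs against 0, which is 47.6-fold higher when 3 UMIs are put in place of 0. Heat shock genes were lower in 4 of 20, with a median of -0.34. Neutrophil markers summed to 79.0 CPM in cluster 1 of the chronic non-recovered library and 12.7 in that of the chronic non-helpless one; their part in these ratios was not tested. The 10 lowest genes of this comparison rested on 3 to 5 UMIs in the chronic non-recovered library and are given no further reading.

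Chemokines in cluster 1 of the chronic non-recovered library came mainly from single cells. Ccl3 stood at 184 CPM there and 12.7 in the chronic non-helpless library, and Ccl4 at 337 and 34.4. However, 24 of the 35 Ccl3 UMIs and 47 of the 64 Ccl4 UMIs were in 1 cell each. With the top cell of each side left out, the log2 ratio of Ccl3 was 3.00 instead of 3.86 and that of Ccl4 1.82 instead of 3.29. Against the non-shocked library the ratios without those cells were 0.86 for Ccl3 and 0.84 for Ccl4, instead of 2.13 and 2.39.

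The same contrasts in the other microglia of each library gave like values for the stress genes printed here and unlike values for the lists printed here. The stress genes are single genes, given for the acute pair and for chronic non-helpless over non-shocked alone. The lists are given by their medians, so the 2 kinds of value are not alike in measure. For acute helpless over acute non-helpless, the log2 ratios in cluster 1 and in the other microglia were 3.03 and 3.08 for Fkbp5, 1.68 and 2.05 for Ddit4, -3.13 and -3.14 for Hspa1a, and -3.51 and -3.58 for Fosb. For chronic non-helpless over non-shocked they were 2.65 and 2.70 for Ddit4 and 1.74 and 1.81 for Tsc22d3. List medians of oxidative phosphorylation, however, were -0.07 in cluster 1 and 1.22 in the other microglia for that contrast, where 29 of 29 genes were higher in the latter and 19.1% of all genes were. For chronic non-recovered over chronic non-helpless, the medians in cluster 1 and in the other microglia were -0.19 and -1.17 for disease-associated genes, and -0.21 and -1.28 for MHC class II. Well-counted genes apart made up 14.9% in cluster 1 and 65.4% in the other microglia there, 10.5% and 49.8% for chronic non-helpless over non-shocked, and 13.1% and 13.8% for the acute pair. In cluster 1 they made up 10.8% for chronic non-recovered over non-shocked.

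The other microglia of these libraries were different clusters: clusters 3 and 4 in batch 3 of the non-shocked library with 9 cells of cluster 6, clusters 2, 3 and 5 in the chronic non-helpless and cluster 6 in the chronic non-recovered library. In the acute pair both had clusters 2 and 3, and the acute non-helpless library had cluster 5 as well. Neutrophil markers summed to 1342 CPM in the other microglia of the chronic non-helpless library and to 12.7 CPM in its cluster 1. Which share of the unlike values comes from cluster make-up was not tested.

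**Figure D5:**
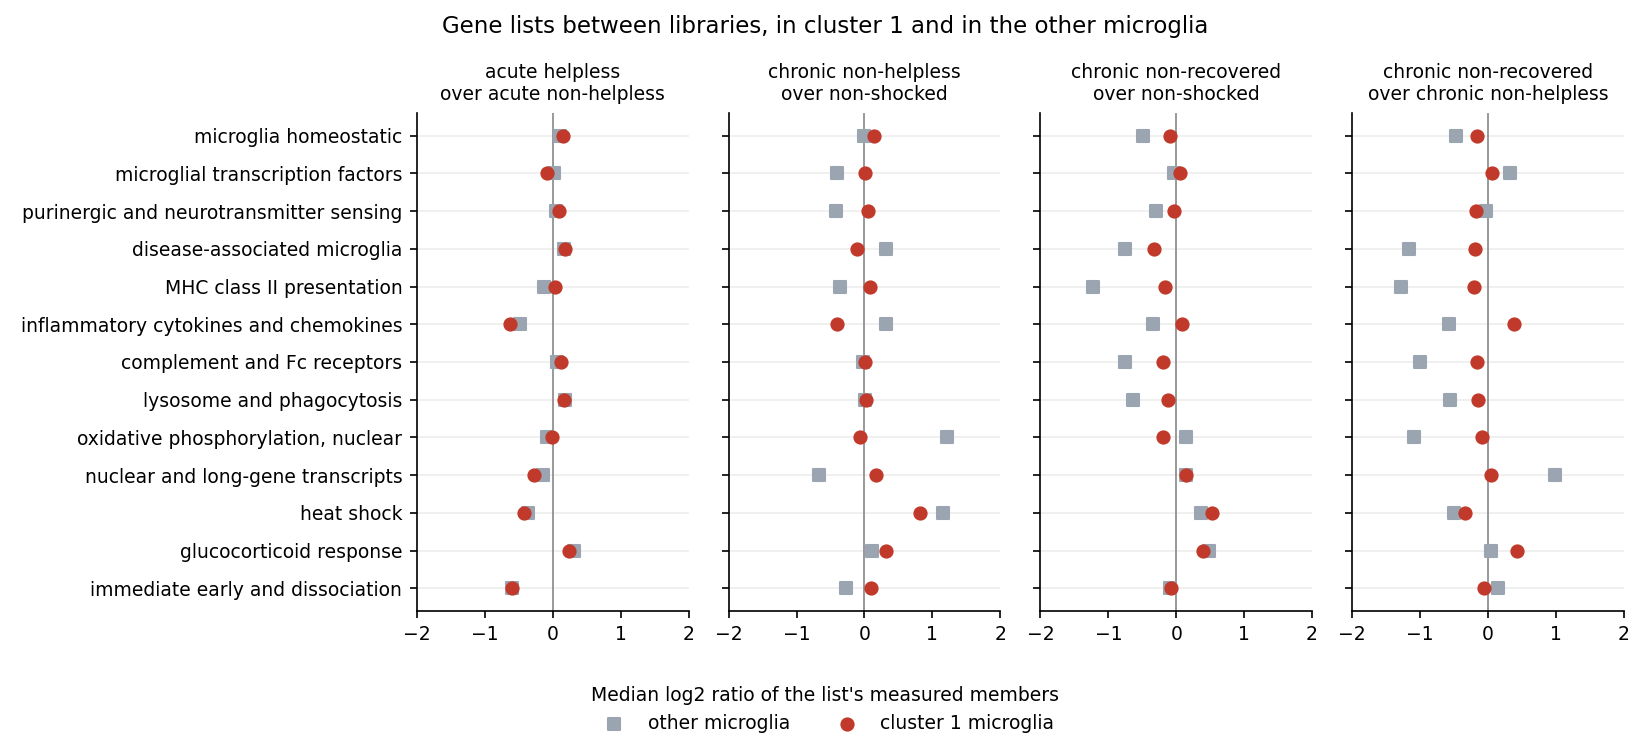
Median log2 ratio of the measured members of each gene list between 2 libraries, in cluster 1 (red circles) and in the other microglia of the same libraries (grey squares). The circles stay within 1 of 0 in all 4 comparisons, while the squares reach 1.22 for oxidative phosphorylation in chronic non-helpless over non-shocked and -1.28 for MHC class II in chronic non-recovered over chronic non-helpless.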

How the data were processed

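Single-cell 5′ libraries (10x Genomics, 1 per condition) were read with Cell Ranger 2.2.0 and Seurat 2.3.4 against mm10, per the submitters' processing notes. The authors deposited raw UMI counts per gene and cell and a cell annotation with cell type, cluster and batch; these counts were used here and the deposited normalised values were not. Cluster 1 microglia were selected by the annotation. All 905 were kept in the main values, Scrublet calls and cells of low ribosomal share included. UMIs were summed over cells per library and cluster and scaled to CPM. Ratios have conditional exact 95% intervals, levels Poisson and shares Clopper-Pearson intervals; UMIs are molecules, and no interval covers the spread between mice. With 1 library per group and clusters made from the same genes no test was run. Non-shocked reference cells were those of batch 3, so for the cluster comparison 185 cells.

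By the naming rule, 12 genes per direction were taken by their weakest-library ratio (50 CPM or more on the higher side in every library), and for conditions 10 per direction by ratio (50 CPM and 30 UMIs), plus list members at least 1.5-fold apart; mitochondrial, ribosomal, haemoglobin, immunoglobulin, unnamed and sex-linked marker genes were not ranked. The members and lists were chosen with earlier results of these data known. The calculation was checked on simulated data. Alternatives covered scaling, filters, thinning to 1000 UMIs, doublets and reference cells. Python 3.11.15, numpy 2.4.6, scipy 1.17.1, pandas 2.3.3 and scanpy 1.11.5 were used. Some items are not reported here.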

Additional observations from a re-analysis of the deposited data

Results flagged for a closer look

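For 4 ratios between conditions cluster 1 and the other microglia of the same libraries lay on opposite sides of 0, each beyond 1.5-fold; the difference between the groups of cells was not tested. Ccl3 had a log2 ratio of 3.86 in cluster 1 and -1.71 in the other microglia for chronic non-recovered over chronic non-helpless, and of 2.13 and -0.78 for chronic non-recovered over non-shocked, with 24 of its 35 UMIs in 1 cell. Kif13b, a kinesin, had 1.23 in cluster 1 and -1.21 in the others for chronic non-helpless over non-shocked. Tmpo, a nuclear envelope protein, had -1.73 in cluster 1 and 1.05 in the others for chronic non-recovered over non-shocked, resting on 3 UMIs in cluster 1 of the chronic non-recovered library.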

How the results depend on the processing

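The percent of genes apart between cluster 1 and other microglia moved with the minimum level, the weighting of cells and the reference cluster. In the acute non-helpless library (9.09) it was 14.9 with cells weighted equally, 34.3 with cells thinned to 1000 UMIs, 18.2 at a minimum of 5 CPM, 3.64 at 50 CPM, 1.20 at 200 CPM, 15.4 with clusters weighted equally, and 14.9, 54.1 and 27.3 against clusters 2, 3 and 5 alone. In the acute helpless library (7.90) the same settings gave 20.2, 36.4, 15.5, 2.85, 0.514 and 13.5, and 40.8 against cluster 3. In the chronic non-helpless library (12.4) thinning gave 35.1, 5 CPM 18.9, 50 CPM 5.13, 200 CPM 0.635, equal clusters 19.9, and clusters 3 and 5 alone 59.5 and 30.2. The non-shocked value was 33.0 against cluster 4 alone, and the chronic non-recovered value 24.1 after thinning. Between conditions, thinning gave 42.1 for acute helpless over acute non-helpless and 38.8 for chronic non-helpless over non-shocked; 200 CPM gave 13.1 and 10.5 there, and 14.9 and 10.8 for chronic non-recovered over chronic non-helpless and over non-shocked. The minimum of 200 CPM, the ribosomal share and the left-out top cells were chosen after seeing the data.

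Genes apart in every library numbered 2, and 19 with cells weighted equally, 15 thinned, 5 at 5 CPM, 0 at 50 or 200 CPM, 4 without Scrublet calls, 1 with cells of 1000 UMIs or more, 4 after the marker check, 4 (in 4 libraries) with cells of at least 2.5% ribosomal UMIs and 24 with clusters weighted equally. Leaving out 1 library gave 3 (without the non-shocked) to 16 (without the acute non-helpless library). The non-shocked share of 44.2% was 53.0% among cells of 1000 UMIs or more, 56.9% in batch 3 and 0 in batch 2. With cells of at least 2.5% ribosomal UMIs the shares were 73.0% (non-shocked), 54.2% (acute helpless) and 84.8% (chronic non-recovered). Signs turned for Tmpo in chronic non-recovered over non-shocked (0.84 thinned, main -1.73) and for the proliferation list in the chronic non-recovered library (0.032 after the marker check). For list medians a turn was counted only where the main median was at least 0.585 in size, so turns of smaller medians are not given. In size, 2169 of 2184 list medians and 2278 of 2379 named ratios between conditions moved by at most 0.585 in log2. Within libraries only each gene's ratio nearest 0 was followed, and 312 of 312 values moved by no more. That ratio was set to 0 where the libraries disagreed in sign, and its main values ran from -0.546 (Arnt) to 0.418 (Anapc13). A gene that lost its shared direction could thus stay within the limit, and the count does not show that directions held. That limit is the 1.5-fold mark and not an error of the values. The cause of these changes was not tested. No paired analysis was possible because each condition is 1 library. Acute non-helpless against non-shocked cells of its own batch and comparisons with the chronic recovered library could not be run, for want of cluster 1 cells.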
